A study of Mus musculus with 16 samples.

Results

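The genes described here are 34 genes of lipid and cholesterol synthesis, measured in whole gastrocnemius, a large calf muscle built mostly of fast fibres. They were taken by name: 20 act in fatty acid and triglyceride synthesis and 14 in sterol synthesis. Of the 34, 32 were read by a probe set (a group of array probes summarised to 1 value) that carries a single gene symbol and exceeded its array's median in 8 mice or more, and all 32 were tested among 13601 genes. Scd2 and Idi1 lie only on probe sets that carry several symbols and are not analysed here. Sqle and Lss were dim, above the array median in 9 and 11 of 16 mice, and each of the other 30 was above it in all 16.

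RNA came from 16 male mice of the FVB/n strain, aged 16 weeks at death, with 1 array for each. All of them carried floxed alleles of Foxo1, Foxo3 and Foxo4 (FoxO1,3,4L/L), the genes of FoxO transcription factors, all received 3 injections of polyinosine:cytidine (pI:pC), an inducer of interferon, at 4 to 5 weeks, and all ate a high-fat diet (58% fat, 25.5% carbohydrate, 16.4% protein) for 8 weeks from 7 to 8 weeks of age. The deletion group (HF KO, n = 8) carried Mx1-Cre, a recombinase under an interferon-responsive promoter, and the control group (HF WT, n = 8) consisted of Cre-negative littermates. The labels call the deletion endothelial directed; the Mx1 promoter answers to interferon and is not limited by its nature to that cell type, and since all deletion mice and no controls had Cre, effects of Cre and of the deletion cannot be told apart.

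Arrays had medians of 4.43 to 4.61 log2 units. Myelin genes stood apart in 5 mice (control 1 and deletion 2, 4, 6 and 7), and Alb, a liver transcript, was high in 6. None of the 3 targeted genes passed the test in whole muscle: Foxo1 differed by 0.07 (limma adjusted p = 0.804), Foxo3 by 0.50 (limma adjusted p = 0.0762) and Foxo4 by -0.24 (limma adjusted p = 0.236), and whether their probes lie in the deleted parts was not analysed here. All 10 markers of fast muscle fibres were bright, and their mean ran from 12.70 to 12.95 in controls and from 12.72 to 12.90 in deletion mice.

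Cells build fatty acids from citrate that leaves the mitochondrion: it is split to acetyl-CoA, carboxylated to malonyl-CoA and joined into palmitate, which is then lengthened by elongases, given double bonds by desaturases and attached to glycerol to make phospholipids and triglycerides. Sterol synthesis starts from the same acetyl-CoA, passes through mevalonate and squalene and ends in cholesterol. Both routes are driven by the SREBP transcription factors, which are held back in the endoplasmic reticulum when sterols are plentiful and act at promoters together with the factor NF-Y. In muscle, de novo synthesis is low next to liver and fat, while desaturation, elongation and triglyceride assembly handle fatty acids taken up from blood.

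Promoters from RefSeq (GRCm38.p6), each holding the 250 bases before and the 50 bases from a start site, were matched for 25 of the 32 tested members, 33 promoters in all. The NF-Y box CCAAT, searched on both strands, was present in 21 of the 33 promoters (63.6%), against 37.4% of all 32851 promoters in the table. It was present in 10 of 12 promoters of sterol genes (83.3%) and in 11 of 21 of fatty acid and triglyceride genes (52.4%). The sterol regulatory element TCACNCCAC, also searched on both strands, was found in 2 promoters, of Mlxipl and Hmgcs1 (6.06%, against 1.24% of all). The E-box CACGTG, which reads the same on both strands, was found in 4 (12.1%, against 7.15% of all), and the forkhead core TGTTTAC on either strand in 1, of Elovl6 (3.03%, against 3.65% of all). A match describes the letters in the window and is not a site shown to be used.

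Promoters are printed for Elovl5 and Acly, the members that passed the test between the groups, and for Hmgcs1, the sterol gene with a sterol regulatory element and 4 NF-Y boxes. Each is written 5′ to 3′ on its gene's strand, with the matches in capitals: in Elovl5 (chr9:77917115-77917414, plus strand) an E-box and then a pair of NF-Y boxes, in Acly (chr11:100527951-100528250, minus strand) 1 NF-Y box, and in Hmgcs1 (chr13:119690101-119690400, plus strand) the sterol regulatory element after the first 2 of its NF-Y boxes. No matches overlap in these windows.
Elovl5: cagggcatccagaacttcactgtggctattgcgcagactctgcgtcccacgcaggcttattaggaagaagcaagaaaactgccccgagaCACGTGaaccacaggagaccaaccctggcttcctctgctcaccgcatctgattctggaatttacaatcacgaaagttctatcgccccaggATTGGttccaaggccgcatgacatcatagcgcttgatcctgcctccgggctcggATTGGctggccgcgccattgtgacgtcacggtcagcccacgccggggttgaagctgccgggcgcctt
Acly: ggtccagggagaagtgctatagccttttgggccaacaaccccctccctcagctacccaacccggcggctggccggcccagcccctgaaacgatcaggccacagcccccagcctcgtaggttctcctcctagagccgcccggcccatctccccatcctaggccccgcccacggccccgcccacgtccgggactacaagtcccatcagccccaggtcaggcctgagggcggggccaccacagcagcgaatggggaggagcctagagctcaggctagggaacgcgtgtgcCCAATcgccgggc
Hmgcs1: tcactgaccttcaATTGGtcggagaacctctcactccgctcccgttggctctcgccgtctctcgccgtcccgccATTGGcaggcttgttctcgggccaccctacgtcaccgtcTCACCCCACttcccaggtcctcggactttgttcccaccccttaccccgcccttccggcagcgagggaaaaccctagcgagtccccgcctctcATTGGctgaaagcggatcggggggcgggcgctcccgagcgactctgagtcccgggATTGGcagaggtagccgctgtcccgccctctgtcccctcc

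The question for the comparison is how these genes differed in muscle under high-fat feeding when the FoxO factors had been deleted. Among the fatty acid and triglyceride genes, Elovl5 and Acly rose with deletion, by 1.34 and 1.28 times, and no member fell past the threshold. No sterol gene passed it in either direction. Without the 5 mice with high myelin genes, or without the 6 with high Alb, neither rise passed, at 0.35 and 0.32 log2 units for Elovl5 and 0.27 and 0.26 for Acly. The threshold was a limma adjusted p under 0.05, with Benjamini-Hochberg adjustment over all 13601 genes, of which 249 passed (1.83%), 208 of them higher (1.53%) and 41 lower (0.301%). Of those 249, 83.5% were higher, a share that was 65.3% when arrays were centred on their medians and 72.4% after quantile normalization. A change in the number of cells of a type and a change in RNA per cell cannot be told apart in RNA from whole muscle. This holds for rises and falls, for any gene below.

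Elovl5 encodes the elongase that lengthens polyunsaturated fatty acids made by the desaturases. Its probe set (17519598, chromosome 9) read from 7.56 to 7.77 log2 units in the controls with a median of 7.71, and from 7.68 to 8.35 in the deletion mice with a median of 8.19. Every deletion mouse but mouse 8 lay above every control, and that mouse, at 7.68, lay inside the control range. With means of 7.70 ± 0.07 and 8.12 ± 0.22 (SD, n = 8 each), the groups differed by 0.43 (limma SE 0.08 and adjusted p = 0.0152; exact two-sided permutation p = 0.00093). The difference passed the threshold in all 16 fits that each left out 1 mouse. Deletion mice varied more than controls, with an SD 3.24 times as large, and in a test of each gene on its own spread, which allows for that, the adjusted p was 0.0786 and Elovl5 did not pass.

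Acly encodes ATP citrate lyase, which splits citrate to give the acetyl-CoA used by both routes. Its probe set (17269521, chromosome 11) ran from 6.36 to 6.68 log2 units in the controls (median 6.56) and from 6.53 to 7.09 in the deletion mice (median 6.94). Here too 7 of 8 deletion mice lay above every control, and mouse 8 was again the exception, at 6.53. With means of 6.55 ± 0.12 and 6.90 ± 0.18 (SD, n = 8 each), the groups differed by 0.35 (limma SE 0.08 and adjusted p = 0.0311; exact two-sided permutation p = 0.0014). This call was close to the threshold: Acly did not pass in a test of each gene on its own spread (adjusted p = 0.0743) or with no filter on dim probe sets (limma adjusted p = 0.0592). It passed in 6 of the 16 fits without 1 mouse, those without control 2, 4 or 8 or deletion 3, 7 or 8, with adjusted p from 0.0032 without deletion mouse 8 to 0.0691 without deletion mouse 6 (limma).

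The other enzymes of fatty acid synthesis did not pass. Acaca, the acetyl-CoA carboxylase of lipid-making tissues, read 6.19 to 6.56 log2 units in the controls and 6.37 to 7.04 in the deletion mice, 5 of which lay above every control, and differed by 0.28 (SE 0.10, limma adjusted p = 0.145). Acacb, the carboxylase whose malonyl-CoA restrains fatty acid entry into mitochondria, differed by -0.05 (SE 0.09). Fasn, fatty acid synthase, differed by 0.16 with a wide error (SE 0.19); deletion mouse 7 was highest of all mice at 7.60 and deletion mouse 8 lowest at 5.79. Me1, malic enzyme, which supplies NADPH for the route, stood the other way: 5 of 8 deletion mice lay below every control, while mouse 3, at 9.40, lay above them all, and the difference was -0.28 (SE 0.12, limma adjusted p = 0.253).

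All 4 desaturases tested had a difference above 0, and none passed. Fads2, which adds the first of the double bonds in polyunsaturated fatty acid synthesis, had the smallest p of them. It read 5.39 to 6.12 log2 units in the controls (median 5.69) and 5.35 to 6.72 in the deletion mice (median 6.05), so the groups overlapped through most of the control range, with 3 deletion mice above every control. The difference was 0.37 (SE 0.16, limma adjusted p = 0.223; exact two-sided permutation p = 0.0496, unadjusted). Fads1, the desaturase that acts after it, differed by 0.33 (SE 0.17, limma adjusted p = 0.310), and Fads3, which desaturates sphingoid bases, by 0.24 (SE 0.16). Scd1, stearoyl-CoA desaturase, which makes monounsaturated fat, varied most: from 8.07 to 10.34 in controls and from 8.49 to 11.49 in deletion mice, a difference of 0.21 with an SE of 0.36.

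Of the elongases other than Elovl5, Elovl1, which makes very long saturated chains, read 5.12 to 5.79 log2 units in the controls and 5.30 to 6.15 in the deletion mice, with 5 deletion mice above every control. It differed by 0.37 (SE 0.12, limma adjusted p = 0.121), and without deletion mouse 8 it passed (limma adjusted p = 0.019). Elovl6, which lengthens palmitate to stearate, differed by 0.19 (SE 0.25) over a range of 5.07 to 6.96 in the deletion mice alone. Over the 12 tested genes of synthesis, desaturation and elongation, 10 differences lay above 0, with a median of 0.26 log2 units, where 50.2% of all genes lay above 0.

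The genes that attach fatty acids to glycerol did not share that sign: 1 of 5 lay above 0, and their median was -0.06. Gpam, the mitochondrial acyltransferase that starts glycerolipid synthesis, had the smallest p. It read 10.54 to 10.98 log2 units in the controls (median 10.80) and 10.36 to 10.99 in the deletion mice (median 10.51). In the deletion group, 5 mice lay below every control, and mouse 2, at 10.99, lay just above them. The difference was -0.22 (SE 0.09, limma adjusted p = 0.215; exact two-sided permutation p = 0.0334, unadjusted). Lpin1, a phosphatidate phosphatase, differed by -0.15 (SE 0.10), Agpat2, the next acyltransferase, by -0.06 (SE 0.09), and the diacylglycerol acyltransferases Dgat1 and Dgat2, which make triglyceride, by 0.01 (SE 0.08) and -0.01 (SE 0.22).

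The regulators of this route showed small differences. Srebf1, whose SREBP product drives fatty acid synthesis, ran from 5.62 to 6.30 log2 units in the controls (median 6.05) and from 5.63 to 6.46 in the deletion mice (median 6.26). The groups overlapped over nearly the whole control range, although 4 deletion mice lay above it, and the difference was 0.19 (SE 0.13, limma adjusted p = 0.467; exact two-sided permutation p = 0.193). Mlxipl, the carbohydrate response factor ChREBP, differed by -0.03 (SE 0.11). Their array values are transcript levels and do not measure the processing of SREBP to its active form.

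**Figure D1:**
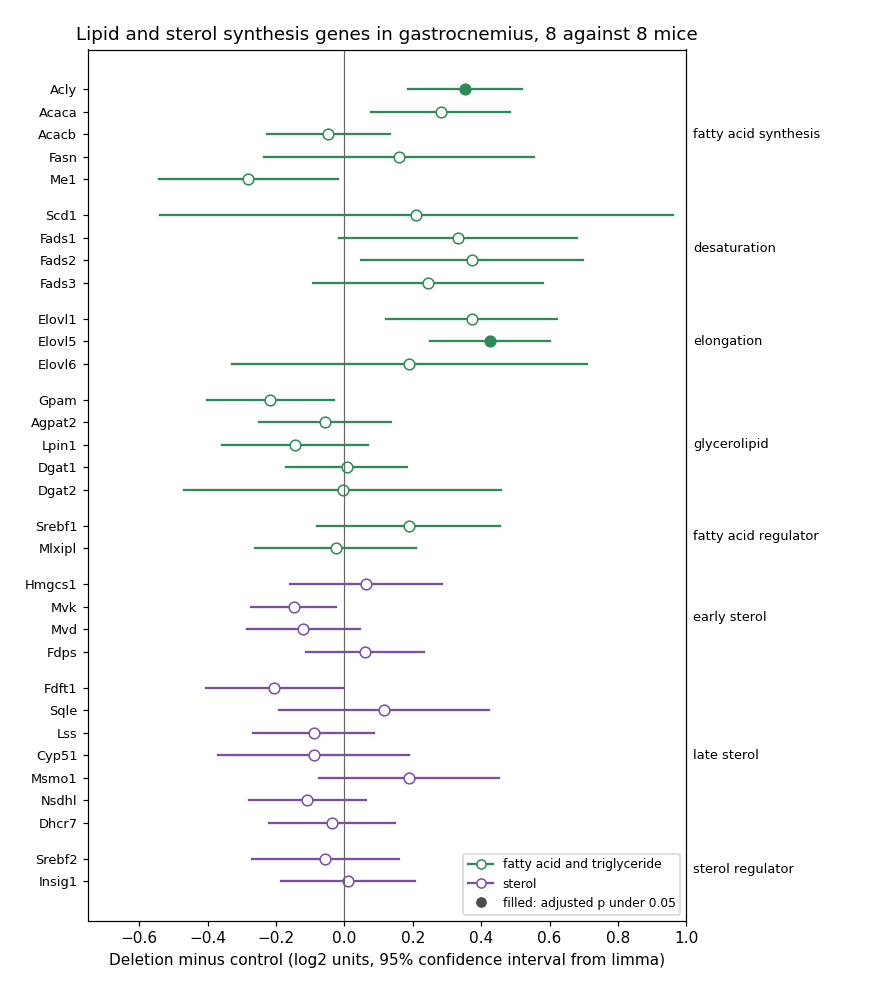
Difference between deletion and control mice (n = 8 each) for the 32 tested members, grouped by role, in log2 units with 95% confidence intervals from limma; green marks fatty acid and triglyceride genes, purple sterol genes, and filled points an adjusted p under 0.05. The filled points are Acly at 0.35 and Elovl5 at 0.43, and the sterol genes all lie between -0.21 and 0.19.

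Sterol genes stayed closer to 0. Of the early enzymes, Mvk, mevalonate kinase, had the smallest p: it read 5.62 to 5.81 log2 units in the controls (median 5.71) and 5.42 to 5.73 in the deletion mice (median 5.59). In 6 of 8 deletion mice it lay below every control, and the other two, mice 1 and 5, lay inside the control range. The difference was -0.15 (SE 0.06, limma adjusted p = 0.207; exact two-sided permutation p = 0.00901, unadjusted), which did not pass over all genes. Hmgcs1, HMG-CoA synthase, differed by 0.06 (SE 0.11), Mvd, mevalonate diphosphate decarboxylase, by -0.12 (SE 0.08), and Fdps, farnesyl diphosphate synthase, by 0.06 (SE 0.08).

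Of the 7 enzymes from squalene on, Fdft1, squalene synthase, had the smallest p. It ran from 9.20 to 9.79 log2 units in the controls (median 9.45) and from 8.86 to 9.49 in the deletion mice (median 9.29). Most deletion mice lay inside the control range, and mice 3 and 6 lay below it. The difference was -0.21 (SE 0.10, limma adjusted p = 0.276; exact two-sided permutation p = 0.0552). Msmo1, a sterol demethylation enzyme, had the largest positive difference of the sterol genes, at 0.19 (SE 0.13), and Sqle, squalene epoxidase, stood at 0.11 (SE 0.15). Lss, which closes the sterol rings, Cyp51 and Nsdhl, which act in demethylation, and Dhcr7, which makes cholesterol from its last precursor, lay between -0.11 and -0.04.

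Neither sterol regulator passed. Srebf2, whose SREBP product drives sterol genes, read 6.17 to 6.69 log2 units in the controls (median 6.26) and 5.83 to 6.62 in the deletion mice (median 6.28), with 3 deletion mice below every control and none above. It differed by -0.06 (SE 0.10, limma adjusted p = 0.824; exact two-sided permutation p = 0.612). Insig1, the anchor that holds the SREBP complex back when sterols are plentiful, differed by 0.01 (SE 0.09).

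**Figure D2:**
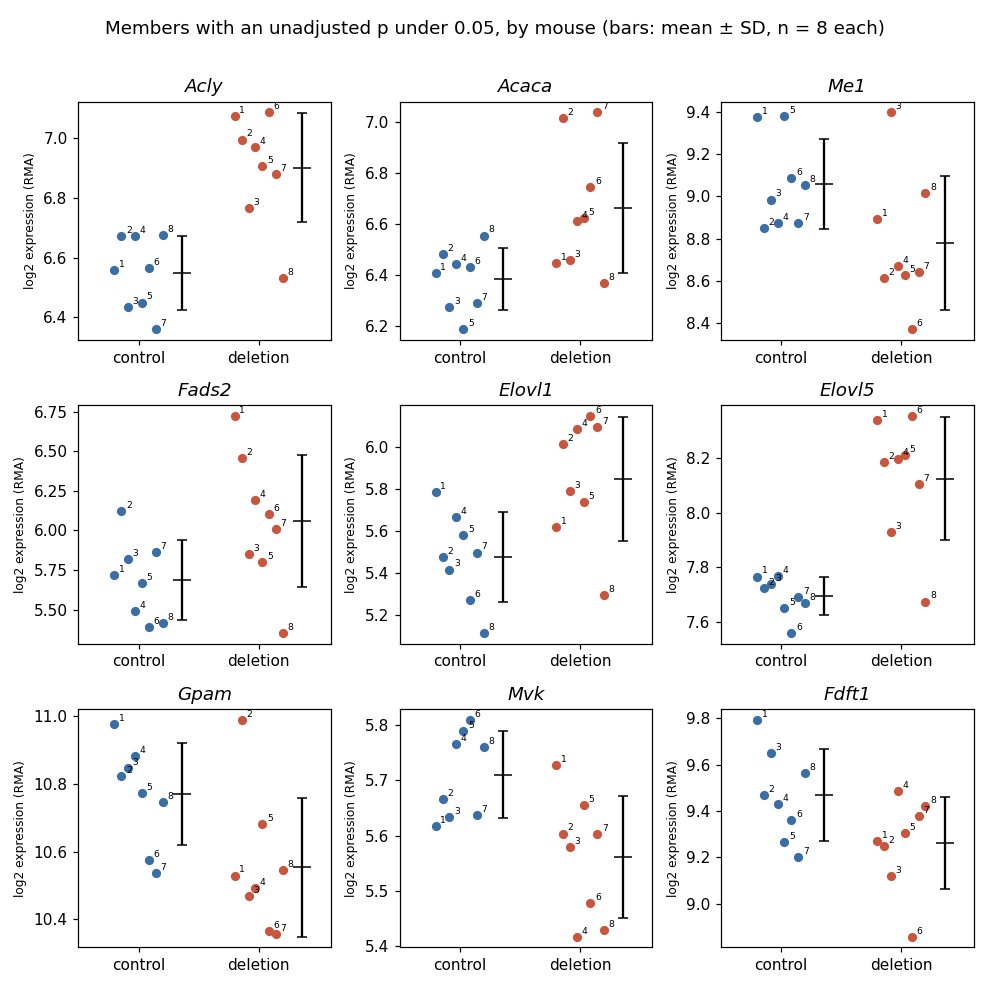
Log2 expression of the 9 members with an unadjusted limma p under 0.05, by mouse (controls blue, deletion red, mouse numbers beside the points); black bars are means ± SD, n = 8 each. Deletion mouse 8 lies inside the control range of Acly and Elovl5, where the other 7 deletion mice lie above it, and for Me1, Gpam, Mvk and Fdft1 the deletion mean is the lower one.

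Set side by side, the fatty acid and triglyceride group had 2 of 19 tested members past the threshold, both higher, and 5 higher and 2 lower at an unadjusted p under 0.05 (36.8% of the group). The sterol group had 0 of 13 past it, and 0 higher and 2 lower at an unadjusted p under 0.05 (15.4%). A test of each gene on its own spread, which allows unequal SDs, called 0 members of either group. At an unadjusted p under 0.05 by that test stood 5 of the 19 and 1 of the 13. Over all genes it called 56 higher and 12 lower, and its unadjusted share of all genes was not computed. By limma the unadjusted share over all genes was 17.3%, with 10.5% higher and 6.82% lower, so the sterol share by limma was close to it. The median difference was 0.19 log2 units in the fatty acid and triglyceride group and -0.06 in the sterol group, against 0.0007 over all genes. No member had groups that did not overlap, as 0.353% of all genes did. The mean of the 19 minus the mean of the 13 in each mouse averaged 1.01 ± 0.11 for controls and 1.16 ± 0.09 for deletion mice (SD, n = 8 each), a shift of 0.16 given as a description.

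The median of the fatty acid and triglyceride group rested partly on single mice. It was 0.02 without deletion mouse 7, 0.09 without control mouse 5 and 0.12 without control mouse 6. The sterol median was -0.005 without control mouse 4 and -0.03 without deletion mouse 8, and it lay farther below 0 with centred arrays (-0.11), for enzymes alone (-0.09), without the 6 mice with high Alb (-0.10) and without the 5 with high myelin genes (-0.14). A filter at the 75th percentile brought it to -0.02.

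A list of 59 other genes of the same routes was looked at, of which 45 were tested, 7 lay under the filter on dim probe sets and 7 are not analysed here. None of the 45 passed by limma, and none by the test of each gene on its own spread. At an unadjusted p under 0.05, 9 were higher and 4 lower by limma (28.9%, against 17.3% of all genes). By the other test 10 differed, and the share of all genes by that test was not computed. The median difference was 0.02 for the 26 fatty acid and triglyceride genes and 0.04 for the 19 sterol genes. The smallest p were those of Pparg, the nuclear receptor that drives fat cell formation, and Hacd2, a dehydratase of the elongation cycle. Pparg read 5.60 to 6.63 log2 units in the controls and 5.99 to 6.81 in the deletion mice, differing by 0.50 (SE 0.14, limma adjusted p = 0.0751), with 4 deletion mice above every control. Hacd2 read 6.12 to 6.59 in controls and 6.48 to 7.20 in deletion mice, differing by 0.38 (SE 0.11, limma adjusted p = 0.0833), with 5 deletion mice above every control.

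Many of the members, though not all, moved together over the 16 mice once each group's mean was removed. With group means removed, the median Pearson r between pairs was 0.41 among the genes of synthesis, desaturation and elongation, 0.27 over the whole fatty acid and triglyceride group, 0.23 among sterol genes and 0.22 between the groups, against 0.01 over all pairs of genes tested. These values pool 16 mice on shared arrays and are a description. Most members had the larger SD in the deletion mice, which therefore weigh more in a pooled r. Whether a pair moved together in each group on its own was not computed. The closest pair was Hmgcs1 and Cyp51 (r = 0.91), followed by Fads1 and Msmo1 (r = 0.87), a desaturase and a sterol enzyme, and Fads1 and Elovl1 (r = 0.86). Fasn and Scd1 stood at r = 0.84, and Acly and Elovl5 at r = 0.80. Other pairs ran opposite, with Mvd and Cyp51 at r = -0.68 and Me1 and Srebf2 at r = -0.65. An r above 0.5 was found in 27.5% of fatty acid and triglyceride pairs and 15.4% of sterol pairs, against 5.22% of all pairs.

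A few mice lay at an end of the range for many members, and their part in that shared movement was not tested. Deletion mouse 8 was the lowest deletion mouse for 15 of the 32 members, where it was for 18.9% of all genes. Deletion mouse 7 was the highest of all mice for 7 members, among them Fasn, Scd1 and Fads3, where it was for 4.63% of all genes. The SD was larger in the deletion mice for 28 of 32 members (87.5%), against 63.8% of all genes, and the median ratio of the SDs was 1.4 against 1.17.

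**Figure D3:**
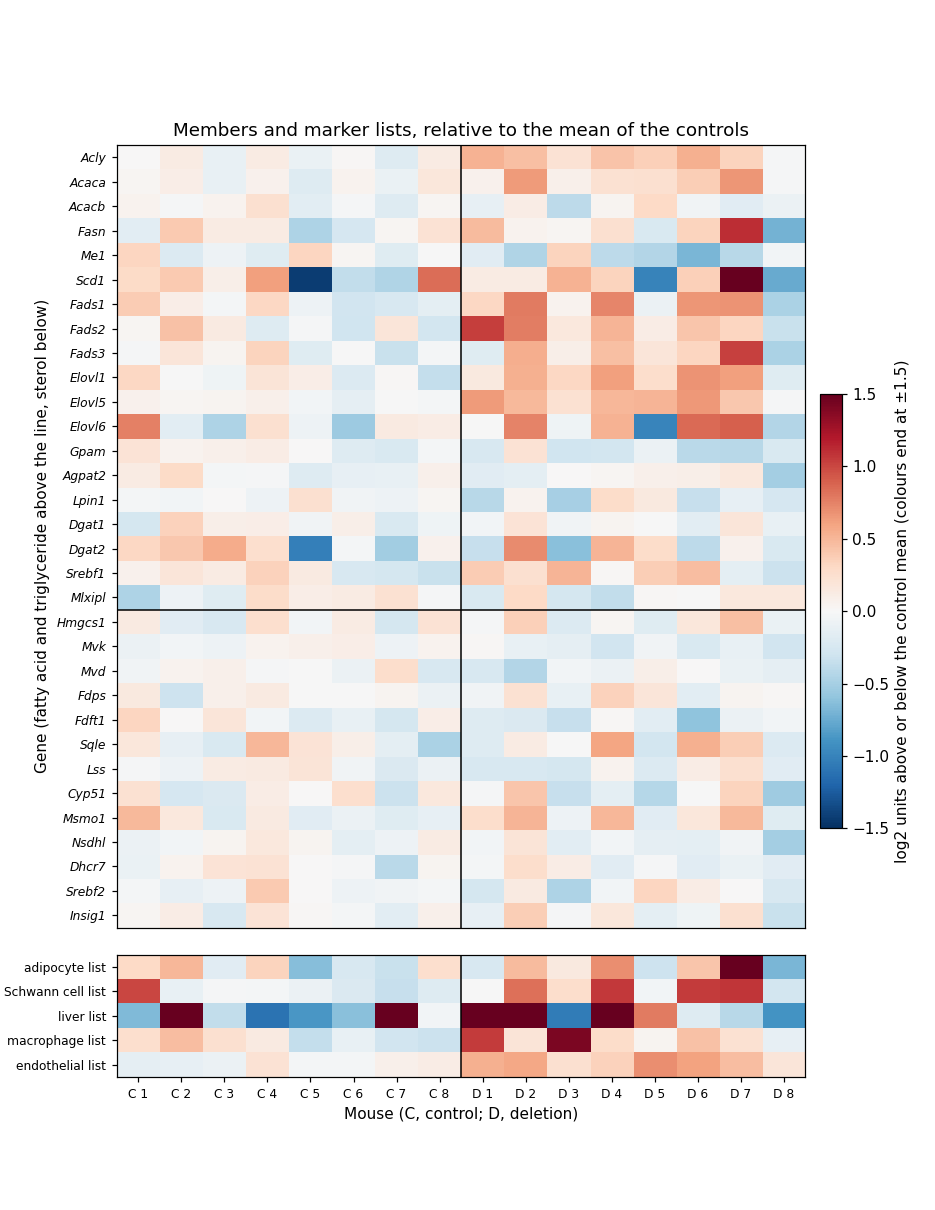
Log2 expression of the 32 tested members and, below them, the means of 5 marker lists of other cell types, in each mouse (C, control; D, deletion), relative to the mean of the controls; red is higher, blue lower, and colours end at ±1.5. Deletion mice 2, 4, 6 and 7 are red for Fads1, Elovl1 and Elovl6 and for the Schwann cell list, and deletion mouse 7 is darkest for Scd1, Fasn and the adipocyte list.

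Whole muscle holds nerve, fat, vessels and immune cells, and markers of these moved with members. Myelin genes of Schwann cells, the glia of peripheral nerve, were high in 5 mice (control 1 and deletion 2, 4, 6 and 7), where the mean of the 6 genes tested lay from 6.90 to 7.15 log2 units, and no higher than 6.35 in the other 11. The list ran from 5.74 to 7.09 in controls and from 5.80 to 7.15 in deletion mice, with 0 of 6 genes past the threshold; Mag lay under the filter. Fads1 and Elovl6 had the same 5 mice as their 5 highest, and the share of all genes that did was not computed. Deletion mice 2, 4, 6 and 7 were the 4 highest of their group for 6 members, Fads1, Fads3, Elovl1, Elovl6, Hmgcs1 and Sqle, where they were for 2.34% of all genes. Control mouse 1 was the highest control for 7 members, against 11.3% of all genes.

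Without those 5 mice, 7 controls against 4 deletion mice, the median difference of the fatty acid and triglyceride group turned from 0.19 to -0.09, that of the sterol group went from -0.06 to -0.14, and no member passed. Elovl5 stood at 0.35 (limma adjusted p = 0.354) and Acly by 0.27 (limma adjusted p = 0.474), while Fads1 stood at 0.005, Elovl1 at 0.18 and Acaca at 0.09. Fasn, Scd1, Fads3 and Elovl6 turned below 0. Over all genes this smaller comparison called 13 higher and 3 lower. It left out deletion mouse 7, and without that mouse alone the fatty acid and triglyceride median was 0.02. It kept deletion mouse 8, the lowest deletion mouse for 15 of the 32 members. The part of single mice in the turn of that median was not tested. Since the list splits the mice into separate clusters, relations to it were computed within the 11 mice with low values. There Srebf1 stood at r = 0.87 (rho = 0.83, permutation p = 4e-05 and adjusted p = 0.00128 over 32 members), and at r = 0.92 without control 7 and deletion 3. These 11 mice pool both groups, so r can carry a difference between them. In the 5 mice with high myelin genes Srebf1 read 5.81 to 6.41 log2 units, within its range of 5.62 to 6.46 in the other 11. No other member had an adjusted p under 0.05. The next by size of r were Mlxipl (r = -0.69), Dhcr7 (r = 0.69), Elovl1 (r = 0.68) and Fads1 (r = 0.64).

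The adipocyte list (6 of 8 genes tested, among them Adipoq, Plin1 and Lep; Cfd is not analysed here and Adig lay under the filter) ran from 5.19 to 6.33 log2 units in the controls and from 5.15 to 7.42 in the deletion mice, the highest being deletion mouse 7 and the lowest deletion mouse 8. None of its genes passed between the groups. Scd1 followed this list over the 16 mice with r = 0.89 and rho = 0.79 (permutation, adjusted p = 0.00144 and 0.0118 over 192 relations of members and lists), r = 0.79 without the 2 mice farthest from the list's median, and r = 0.90 within each group of 8. Fads3 stood at r = 0.90 (rho = 0.86) and Fasn at r = 0.82 (rho = 0.72), the latter at r = 0.57 without the 2 farthest mice. In all, 9 of 32 members had an adjusted p under 0.05 for this list, 6 fatty acid and 3 sterol genes. The share of all genes that follow the list was not computed, so the count does not set the members apart. Within the groups no member had an adjusted p under 0.05 (exact permutation, smallest adjusted p 0.205 for controls and 0.0786 for deletion mice).

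**Figure D4:**
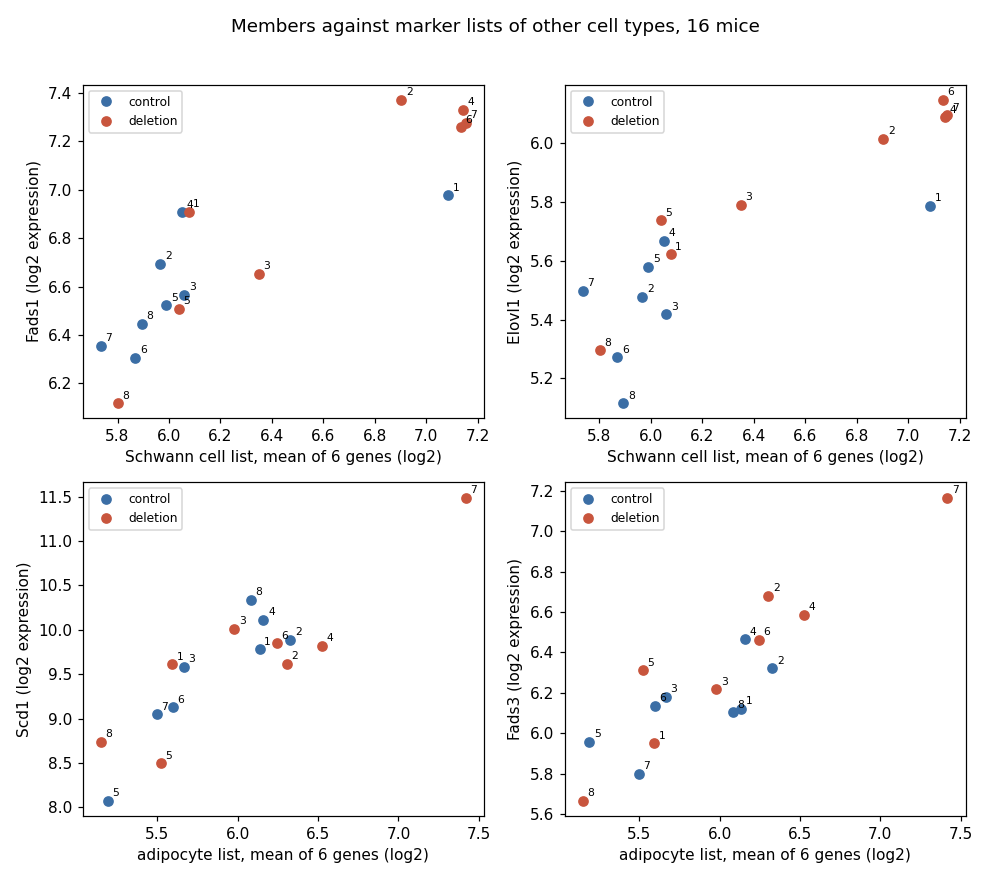
Log2 expression of Fads1 and Elovl1 against the mean of the Schwann cell list (upper panels) and of Scd1 and Fads3 against the mean of the adipocyte list (lower panels), 1 point per mouse with its number, controls blue and deletion mice red. On the Schwann cell axis 5 mice stand apart at 6.90 to 7.15 and the other 11 lie at or under 6.35, and on the adipocyte axis deletion mouse 7 stands highest at 7.42.

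Endothelial markers differed between the groups as Elovl5 and Acly did. Of 8 endothelial genes, 6 were higher with deletion past the threshold, and the list ran from 7.86 to 8.21 log2 units in the controls and from 8.18 to 8.69 in the deletion mice. Since both the list and these members were higher with deletion, a value pooled over the 16 mice carries that difference, and r is given within each group of 8. For Elovl5 it was 0.81 in the deletion mice and 0.03 in the controls, and for Acly 0.75 and 0.24. No within-group relation to the list passed adjustment (exact permutation, smallest adjusted p 0.198), so a relation of either member to the list within the groups was not shown. Macrophage markers ran from 6.47 to 7.29 in controls and from 6.70 to 8.24 in deletion mice, with 1 of 8 higher past the threshold. Over the 16 mice, 2 members had an adjusted p under 0.05 for that list by Pearson's r (permutation), and the share of all genes was not computed. Srebf1 stood at r = 0.69 (adjusted p = 0.0236; rho = 0.64, adjusted p = 0.0798), with 0.59 without the 2 farthest mice and 0.62 and 0.65 within controls and deletion mice, and Lpin1 at r = -0.67 (adjusted p = 0.0378; rho = -0.41, adjusted p = 0.353), with -0.23 without the 2 farthest mice. The liver list, with Alb high in 6 mice, ran from 4.75 to 7.85 in controls and from 4.81 to 8.30 in deletion mice; 8 of its 10 genes were tested, none passed, and Fga and Fgb lay under the filter. It split the mice as Alb did, at 6.64 or more in 6 mice (control 2 and 7 and deletion 1, 2, 4 and 5) and at 5.82 or less in the other 10. Fads2 read 5.80 to 6.72 in those 6 (median 6.16) and 5.35 to 6.10 in the other 10 (median 5.69), so its higher values lay with the liver list. More of those 6 were deletion mice than controls, so this comparison also carries the difference between the groups. Its r to the list was 0.63 within the 6 (rho = 0.71, exact permutation p = 0.182) and 0.28 within the 10 (rho = 0.26, permutation p = 0.422), and no member had an adjusted p under 0.05 in either set. Without the 6 mice Fads2 differed by 0.24. Elovl5 there differed by 0.32 (limma adjusted p = 0.312) and Acly by 0.26 (limma adjusted p = 0.384). The part of nerve, fat, vessel, immune or liver transcripts in the members' differences was not tested.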

How the data were processed

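Total RNA, extracted by RNeasy, was labelled with biotin as cRNA from 250 ng for Affymetrix arrays, per the labels. The authors deposited 1 log2 value per probe set and mouse; the submitters' processing notes name RMA and oligo, without versions. RMA equalises the arrays' distributions, which hides any shift shared by all transcripts and compresses fold changes of dim probe sets. Scan dates, genome build and array design: not given in the sources used here. Batches were therefore not examined. The number of arrays limits the precision.

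The platform annotation gave 1 symbol to 23521 of the 41345 probe sets, several to 1814 and none to 16010; only those with 1 symbol were named. Probe sets that exceeded the array median in 8 or more of the 16 mice were kept, and the brightest per gene was used. Each tested member had 1 probe set. The comparison used limma 3.58.1 (lmFit, then eBayes; R 4.3.3) with no term but group, two-sided, Benjamini-Hochberg over 13601 genes; the procedure was also tested on simulated data. Exact permutation tests of single members ran over all 12870 splits of the mice and are unadjusted. The mice are separate biological replicates per the labels. No arrays were duplicates (correlations 0.958 to 0.982).

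The members and the lists of other pathway genes and of cell type markers were chosen with earlier results of these data known. Named in full are members past the threshold and the member of each role with the smallest p; of other pathway genes, the 2 with the smallest p. Mouse names follow the labels' replicate numbers.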

Additional observations from a re-analysis of the deposited data

Results flagged for a closer look

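In the controls, 1 mouse lay far from the other 7 for a pair of members. Lpin1 was highest in control mouse 5, against 9.79 log2 units in the next mouse, a gap of 0.647 of the controls' whole range. Srebf2 read 6.69 in control mouse 4, against 6.30 in the next, a gap of 0.753 of the range. Both gaps exceed Dixon's critical value for a group of 8. In all, 64 groups of values were looked at, and chance flags about 1 in 20, so 2 such gaps are not more than chance gives.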

How the results depend on the processing

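The sterol group had no call in either direction, and the fatty acid and triglyceride group none lower, under every alternative run. The 2 higher calls became 0 by a test of each gene on its own spread (Welch's), 1 with no filter, 1 with the replicate block and 1 to 3 with 1 mouse left out, and 0 without the 5 mice with high Schwann cell markers or the 6 with high Alb, both chosen after seeing the data. Acly had an adjusted p of 0.0743 by Welch's test, 0.0592 with no filter and 0.0535 with the replicate block, and Elovl5 of 0.0786 by Welch's test. Deviations of samples with the same replicate number correlated from -0.083 to 0.25, over 0.1 in 4 of 8 pairs. Of the 8 controls, 3 were closest to their own number. What chance gives for these counts was not computed, so they do not settle whether the numbers pair the mice. The labels state no block, so the replicate number served as an alternative only. Apart from Acly, the block changed no member's call. Over all genes, the 208 higher and 41 lower calls became 56 and 12 by Welch's test, 126 and 67 with centred arrays, 116 and 21 with no filter, 381 and 124 at an adjusted p under 0.10, 13 and 3 without the mice with high Schwann cell markers, and 4 and 3 without those with high Alb; array weights gave 65 lower. With 1 mouse left out they ran from 90 to 538 and from 17 to 142, both lowest without deletion mouse 6 and highest without deletion mouse 8.

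The fatty acid and triglyceride median ran from 0.025 to 0.28 with 1 mouse left out and was -0.093 without the mice with high Schwann cell markers. Without those mice the sign turned for Fasn (-0.13), Scd1 (-0.24), Fads3 (-0.10), Elovl6 (-0.27), Dgat1 (-0.093), Hmgcs1 (-0.11), Sqle (-0.15) and Insig1 (-0.15). Without the mice with high Alb it turned for Dgat1 (-0.018), Mlxipl (0.041), Fdps (-0.10) and Insig1 (-0.054). Dgat1 also turned with array weights (-0.013), centred arrays (-0.047) and quantile normalization (-0.033), and Insig1 with centred arrays (-0.043) and quantile normalization (-0.038). With 1 mouse left out the sign turned for Acacb (-0.10 to 0.0023), Scd1 (-0.045 to 0.38), Agpat2 (-0.089 to 0.0074), Dgat1 (-0.032 to 0.055), Dgat2 (-0.15 to 0.083), Mlxipl (-0.093 to 0.022), Srebf2 (-0.11 to 0.0023) and Insig1 (-0.041 to 0.060). The other 18 of 32 members kept their sign throughout. Apart from fits without 1 mouse, the sterol median ran from -0.14 without the mice with high Schwann cell markers to -0.02 with a filter at the 75th percentile, which left 22 members. Fewer mice enter the fits that leave mice out; other causes were not tested.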
